A study of Mus musculus with 6 samples.

Results

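The ligands of the epidermal growth factor (EGF) family and their ERBB receptors were described in the islets of pregnant and non-pregnant mice. Islets are the endocrine clusters of the pancreas, and their beta cells make insulin. Of 10 genes listed for the family, 9 had probe sets carrying their symbol alone in the platform annotation, out of 18194 genes named in this way; amphiregulin (Areg) was the one without, and it was not analysed here. The 9 genes had 20 probe sets, of which 9 belonged to the ligands Egf, Btc, Hbegf, Tgfa and Ereg and 11 to the receptors Egfr, Erbb2, Erbb3 and Erbb4. A group of 3 arrays held islets of non-pregnant mice (labelled 0 dpc, days post coitum) and the other group of 3 those of mice pregnant at 12.5 dpc, all released with collagenase. The study asked which factors drive islet growth in pregnancy. The labels give no strain, genotype or age, nor how many animals lie behind an array. P-values therefore rest on the spread among arrays that may be technical repeats.

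EGF family ligands are made as membrane-anchored precursors, and proteases of the ADAM family release the soluble growth factor. A ligand brings receptors together in pairs, and the receptor kinases then signal through adaptor proteins to the RAS-ERK and PI3K-AKT pathways. EGF, transforming growth factor alpha and amphiregulin bind EGFR, betacellulin, heparin-binding EGF and epiregulin bind both EGFR and ERBB4, ERBB2 binds no known ligand, and ERBB3 has little kinase activity of its own. In islets, EGFR signalling is known for its role in beta cell growth.

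The values are MAS5 signals, which are probe set intensities after background correction and scaling to a common level. Their median on an array was 86.1 to 100.3 over 45101 probe sets. Signals of the control probe sets for a bacterial transcript (TrpnX), which islets lack, ran from 1.1 to 32.3. A probe set was tested when its mean log2 level was in the top 60% of the array, which corresponds to a signal of about 50.5. Markers of beta cells were bright, and their sum overlapped between the groups, with signals summed over 8 genes of 166723.9 to 177297.5 without and 169951.8 to 172600.8 with pregnancy. Iapp and G6pc2 weigh most in this sum, with mean signals of 49771.5 and 36454.2 in non-pregnant islets. The overlap therefore does not show that the share of beta cells was the same. Exocrine cells were also present: the elastase Cela1 had a mean signal of 36714.8 ± 9420.2 (SD, n = 3) in non-pregnant islets.

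The bases before the annotated starts of Egf and Egfr are shown because these were the ligand that rose and the receptor with the most probe sets. Both are 250 bases long, from the RefSeq promoter table of build GRCm38.p6, which held 7 of the 10 genes. The table gives Egf a pair of starts, and the window of the one farther upstream is printed. The Egf window is chr3:129755323-129755572 on the minus strand and the Egfr window chr11:16751953-16752202 on the plus strand, each printed 5′ to 3′ along the gene. Capitals mark a match to the GC box GGGCGG on either strand.

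Egf: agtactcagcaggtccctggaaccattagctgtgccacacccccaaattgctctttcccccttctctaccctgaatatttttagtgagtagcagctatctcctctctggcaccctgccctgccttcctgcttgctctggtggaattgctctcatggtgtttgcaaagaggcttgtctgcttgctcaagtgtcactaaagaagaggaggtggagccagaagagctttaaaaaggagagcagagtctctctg

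Egfr: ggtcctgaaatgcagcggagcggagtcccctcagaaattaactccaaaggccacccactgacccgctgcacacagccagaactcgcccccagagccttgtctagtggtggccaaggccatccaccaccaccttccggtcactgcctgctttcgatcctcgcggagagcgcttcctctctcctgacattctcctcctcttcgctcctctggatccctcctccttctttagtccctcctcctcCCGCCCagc

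The Egf window has 50.4% G and C and no match to the GC box, the TATA box TATAAA, the STAT5 site TTCNNNGAA or the cyclic AMP response element TGACGTCA, all searched on both strands. The window before the other Egf start has 52.0% G and C and no match to these motifs either. The Egfr window has 60.8% G and C and 1 GC box match, which begins 9 bases before the start. Among all 32851 windows of this length in the table, 32.7% held the GC box, 12.4% the TATA box, 7.02% the STAT5 site and 1.55% the cyclic AMP response element.

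In pregnancy the ligands Egf and Hbegf moved in opposite directions, and no receptor probe set passed the test. Egf, the founding ligand, rose by 28.4%, while Hbegf, the heparin-binding member, fell by 30.9% in its brighter probe set. Of the 20 probe sets, 12 from 6 genes were bright enough to be tested. Of these, 1 was called higher and 2 lower (limma, adjusted p under 0.05 over all 27022 probe sets tested), against 4.79% called higher and 4.78% called lower among all probe sets. The groups did not overlap in 5 of the 12 probe sets, against 27.7% of all. Log2 differences were below 0 in 10 of the 12, against 57.2% of all probe sets, with a median of -0.32 against -0.045. Of the 12, 5 were of Egfr, 2 of Hbegf and 2 of Tgfa, so these counts repeat the same genes. By the brightest probe set of each gene, 3 of 4 ligands and 2 of 2 receptors were below 0, against 56.5% of all genes. In bulk islets, fewer cells of a type and less RNA per cell cannot be told apart.

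**Figure D1:**
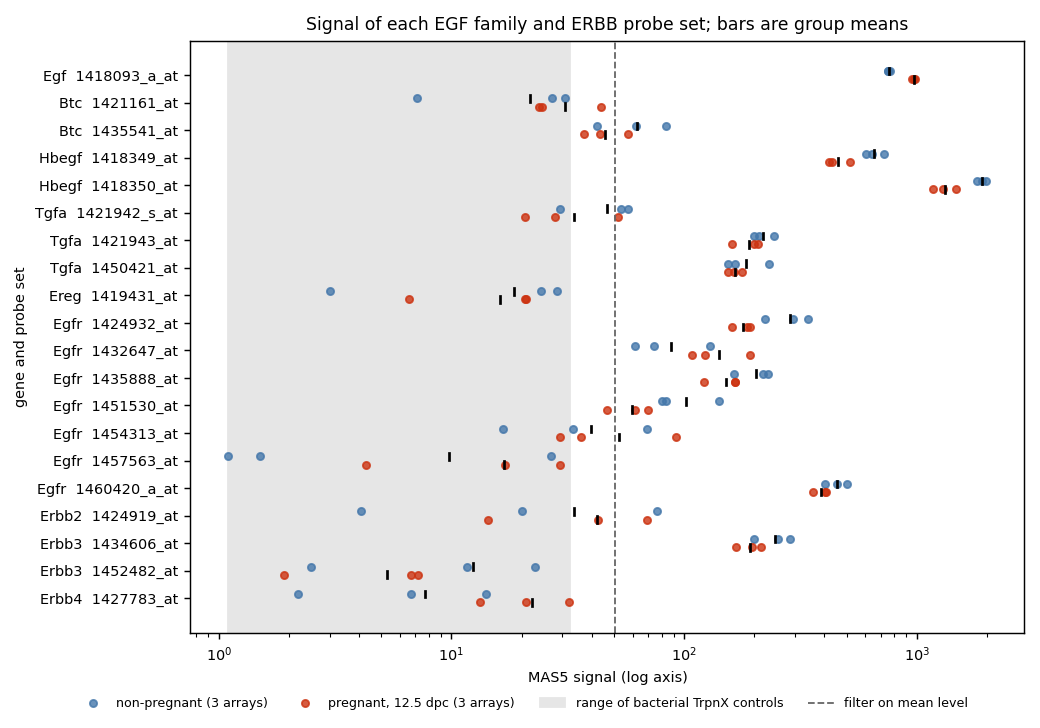
MAS5 signals (log axis) of the 20 probe sets of the family, 1 point per array, with group means as black bars, the range of the bacterial controls shaded and the filter as a dashed line. Egf sits higher in the 3 pregnant arrays and both Hbegf probe sets lower, while Ereg, Erbb4, the weaker Erbb3 and the dimmest Egfr probe set lie within the control range on all 6 arrays.

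Egf was the ligand with the tightest values. Its signal (probe set 1418093_a_at) was 751.2, 765.3 and 750.6 in the non-pregnant arrays and 986.0, 956.7 and 968.4 in the pregnant arrays. Every pregnant array lay above every non-pregnant array. The means were 755.7 ± 8.32 and 970.4 ± 14.8 (SD, n = 3 each), which on the log2 scale differ by 0.35 ± 0.08 (SE; limma adjusted p = 0.021). The call did not hold when non-pregnant replicate 3 or any pregnant array was left out (adjusted p = 0.0529 without non-pregnant replicate 3, 0.082, 0.061 and 0.062 without pregnant replicates 1, 2 and 3), while the log2 difference stayed between 0.34 and 0.36. It did not hold without the trend of variance on signal either (adjusted p = 0.075).

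Hbegf is a ligand known both as a growth factor and as an early-response gene. Its brighter probe set (1418350_at) had signals of 1808.8, 1909.0 and 1991.2 in non-pregnant and 1295.6, 1176.6 and 1472.7 in pregnant arrays. The groups did not overlap, and the spread was wider in pregnancy. The mean went from 1903 ± 91.4 to 1315 ± 149 (SD, n = 3), with -0.53 ± 0.09 as the log2 difference (SE; limma adjusted p = 0.0031). The weaker probe set (1418349_at), designed on the same sequence, had 642.4, 724.9 and 602.6 against 421.0, 431.6 and 517.2. It gave nearly the same difference of -0.51 ± 0.12 (adjusted p = 0.019), again with no overlap. Leaving out any 1 array kept the call of the brighter probe set (adjusted p of 0.0027 to 0.019), whereas the weaker lost it without non-pregnant replicate 2, pregnant replicate 1 or pregnant replicate 2 (adjusted p = 0.076, 0.084 and 0.073). Without the variance trend neither passed (adjusted p = 0.070 and 0.092).

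Tgfa encodes transforming growth factor alpha, a ligand of EGFR. Its 3 probe sets were designed on a single sequence, and 2 of them were tested. The first (1421943_at) had 199.1, 208.8 and 243.6 in non-pregnant and 199.9, 207.0 and 160.2 in pregnant arrays, with overlapping groups (log2 difference -0.19, 95% interval -0.56 to 0.18; limma adjusted p = 0.58). The second (1450421_at) had -0.12 (-0.55 to 0.30; adjusted p = 0.77), and its sign turned to 0.04 without non-pregnant replicate 2, whose signal of 232.4 was the highest of the 6. The probe set that was not tested (1421942_s_at) ran from 20.8 to 57.6.

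Btc, betacellulin, was first isolated from a beta cell tumour line. The tested probe set (1435541_at) had 42.4, 61.8 and 83.2 in non-pregnant and 57.1, 37.0 and 43.6 in pregnant arrays, and the groups overlapped. The log2 difference of -0.32 had a 95% interval of -1.06 to 0.41 (limma adjusted p = 0.64). The interval is wide and includes 0. The other Btc probe set (1421161_at) ran from 7.1 to 44.0 and was above the bacterial controls on 1 of 6 arrays. Ereg, epiregulin, ran from 3.0 to 28.4, within the range of those controls on all 6 arrays.

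Egfr was measured by 7 probe sets, 5 of them tested, and none was called. Log2 differences were below 0 in 4 of the 5. The probe set with the smallest p (1424932_at) had 293.3, 339.4 and 223.3 in non-pregnant and 185.5, 160.0 and 191.7 in pregnant arrays. The groups did not overlap, but the test was narrowly missed, at -0.61 ± 0.18 on the log2 scale (SE; 95% interval -1.0 to -0.22; limma adjusted p = 0.0525). It passed with the filter at the top 40% (adjusted p = 0.039), with robust variance moderation (0.0499) and without non-pregnant replicate 3 (0.026). It did not pass in the other 12 settings. The adjusted p was 0.12 without the variance trend, 0.11 with no filter and 0.085 to 0.19 with any other array left out. A second probe set designed on the same sequence (1451530_at) had 141.3, 80.3 and 83.8 against 70.1, 46.7 and 61.7, also without overlap. Its difference was -0.62 (-1.26 to 0.02; adjusted p = 0.24).

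The brightest Egfr probe set (1460420_a_at) showed a smaller difference. Its signals were 502.9, 453.5 and 401.7 in non-pregnant and 357.7, 405.2 and 401.7 in pregnant arrays, with overlap (log2 difference -0.21, 95% interval -0.48 to 0.06; limma adjusted p = 0.36). Probe set 1435888_at had 229.0, 218.4 and 164.5 against 165.0, 121.1 and 165.6 (-0.40, -0.83 to 0.03; adjusted p = 0.26). Probe set 1432647_at had the opposite sign, with overlapping groups, at 74.2, 128.9 and 61.3 against 107.8, 122.4 and 191.3 (0.60, -0.03 to 1.24; adjusted p = 0.25). The log2 ratio of 1424932_at to 1432647_at was 1.78, 1.29 and 1.63 in non-pregnant and 0.703, 0.347 and 0.003 in pregnant arrays, a change of -1.22. With 3 arrays against 3 the exact two-sided permutation test cannot go below 0.1, which 4 of the 10 pairs of Egfr probe sets reached (adjusted p = 0.25 over the 10 pairs). A difference between the probe sets is therefore not shown. The 2 Egfr probe sets that were not tested ran from 16.6 to 91.9 and from 1.1 to 29.3. Their log2 differences were 0.30 and 0.42, both from dim signals. With all 7 Egfr probe sets averaged, the dim ones included, the log2 difference was -0.07 (limma adjusted p = 0.87).

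Erbb3, the kinase-poor partner receptor, had signals of 286.0, 200.1 and 251.9 in non-pregnant and 167.0, 195.1 and 214.8 in pregnant arrays (1434606_at). The groups overlapped, with a log2 difference of -0.32 (95% interval -0.71 to 0.06; limma adjusted p = 0.31). Its other probe set ran from 1.9 to 22.8. Erbb2, the receptor without a known ligand, was erratic and too dim to be tested, at 4.1, 20.0 and 76.7 in non-pregnant and 14.4, 42.7 and 69.3 in pregnant arrays. Erbb4, a receptor of betacellulin and the neuregulins, had 2.2, 14.1 and 6.7 against 21.0, 13.3 and 32.0, all within the range of the bacterial controls. No direction can be read for Erbb2 or Erbb4 at such signals.

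**Figure D2:**
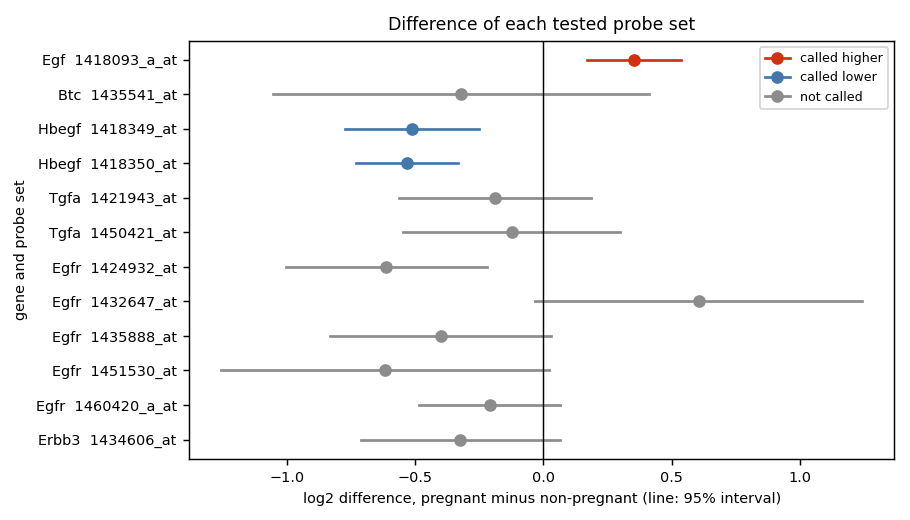
Log2 difference (pregnant minus non-pregnant) of the 12 tested probe sets, with 95% intervals from limma, coloured by call. The interval of Egf lies above 0 and those of both Hbegf probe sets and of Egfr 1424932_at below 0, and Egfr 1432647_at has the opposite sign to the other 4 Egfr probe sets.

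None of the other ligands of the family, Epgn, Nrg1, Nrg2, Nrg3 and Nrg4, was bright enough to be tested. Their mean signals lay between 30.9 and 56.1 in non-pregnant and between 13.0 and 49.9 in pregnant islets.

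The list for ligand release held 10 tested genes, of which 9 were proteases and their cofactors and 1 was a protease inhibitor. No protease or cofactor was called in either direction, the inhibitor was called lower, and the median log2 difference of the list was -0.01. A gene is represented here by its brightest probe set. Among all 12914 genes tested, 6.1% were called higher and 5.79% lower, and the median was -0.04. The inhibitor was Timp3, which acts on ADAM proteases. Its signals of 2566.9, 2864.3 and 3487.7 in non-pregnant and 1870.0, 1872.4 and 2075.3 in pregnant arrays did not overlap (log2 difference -0.60 ± 0.10, limma adjusted p = 0.0029). Of the 4 Timp3 probe sets tested, 2 were called lower. The proteases Adam17 and Adam10 had -0.15 ± 0.13 and 0.05 ± 0.09 (adjusted p = 0.57 and 0.82).

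Of 31 tested adaptors and enzymes of the RAS-ERK and PI3K-AKT pathways, 2 rose and 0 fell, 6.45% against the 6.1% among all genes, with a median of 0.05. Map2k2, the ERK kinase MEK2, rose from 1602.6 ± 58.4 to 2085.7 ± 49.9 (log2 difference 0.38 ± 0.07, limma adjusted p = 0.0053). Eps15, an endocytic adaptor of EGFR, rose from 901.9 ± 46.7 to 1147.6 ± 96.2 (0.34 ± 0.09, adjusted p = 0.038). The call of Eps15 was lost without any 1 of 5 arrays, all but pregnant replicate 3 (adjusted p of 0.058 to 0.15), and with no filter (0.0544). Among their tested probe sets, 1 of 2 for Map2k2 and 2 of 3 for Eps15 were called higher. Some genes not called by their brightest probe set had another called. It was higher for Akt1 (1 of 3 tested) and Stat3 (1 of 4) and lower for Gab1 (1 of 3).

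Genes that restrain ERBB receptors or the ERK pathway were called lower in 5 of 24 cases, 20.8% against the 5.79% among all genes, and higher in 0. The list had a median of -0.20. Errfi1, which encodes the EGFR kinase inhibitor MIG6, had 8040.5, 8471.7 and 7317.2 in non-pregnant and 5624.3, 6034.8 and 4923.9 in pregnant arrays. Every pregnant array lay below every non-pregnant array, with a log2 difference of -0.52 ± 0.08 (limma adjusted p = 0.0015), and both Errfi1 probe sets were called lower. Spry1, a sprouty inhibitor of receptor kinase signalling, fell by 0.52 ± 0.13 (adjusted p = 0.030), the phosphatase Ptpn1 by 0.32 ± 0.08 (0.021) and the ubiquitin ligase Nedd4 by 0.23 ± 0.06 (0.031). Only 1 of 2 tested probe sets of Ptpn1 and 1 of 3 of Nedd4 were called. Spry2, named after its value was seen, fell by 0.43 ± 0.11 (0.032). The count was 1 with each array centred on its median, which left Errfi1 alone, 1 without non-pregnant replicate 2, non-pregnant replicate 3 or pregnant replicate 1, and 3 without pregnant replicate 2 or 3. Nedd4 and Spry2 lost their calls on leaving out any array but non-pregnant replicate 1 (adjusted p of 0.056 to 0.11 and 0.066 to 0.11). Ptpn1 lost its call without non-pregnant replicate 2 or 3 or pregnant replicate 1 or 2 (0.066 to 0.084) and with probe sets averaged (0.19). Spry1 lost it without any non-pregnant array or pregnant replicate 1 (0.069 to 0.11) and with no filter (0.055). The ERK phosphatase Dusp6 had -0.18 ± 0.08 (adjusted p = 0.23), and Lrig1, which lowers ERBB receptor levels, had -0.31 ± 0.11 (0.11).

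Genes known to respond to EGF or ERK signalling were called lower in 6 of 19 cases and higher in 1, which is 31.6% against 5.79% and 5.26% against 6.1%, with a median of -0.25. Phlda1, an early-response gene, went from 6496.8, 8088.9 and 6678.2 to 4899.8, 4603.7 and 4638.9, with no overlap (log2 difference -0.58 ± 0.08, limma adjusted p = 7.4e-04). The AP-1 subunit Fosb fell by 0.43 ± 0.08 (adjusted p = 0.0060) and the early-response gene Ier3 by 0.46 ± 0.09 (0.0063). Junb, Ier2 and Etv5, named after their values were seen, fell by 0.42, 0.30 and 0.58 (adjusted p = 0.015, 0.039 and 0.0468). Cyclin D1, Ccnd1, was the gene that rose, from 5184.1 ± 600.7 to 6772.8 ± 74.3 (0.39 ± 0.08, adjusted p = 0.0070). The early genes Fos and Egr1, among the brightest on the array, did not pass the test, with -0.04 ± 0.05 (95% interval -0.14 to 0.07) and -0.075 ± 0.05 (-0.18 to 0.03; adjusted p = 0.71 and 0.42). The count of lower genes was 3 with each array centred on its median and 3 without non-pregnant replicate 2, pregnant replicate 1 or pregnant replicate 3. Etv5 lost its call without any 1 of the 6 arrays (adjusted p of 0.0523 to 0.18). Ier2 lost it without non-pregnant replicate 1 or 2 or pregnant replicate 1 or 3 (0.11 to 0.15). Junb lost its call in 5 of the alternative settings, and its adjusted p ran from 0.012 to 0.062 with any 1 array left out. For Etv5 1 of 3 tested probe sets was called lower, and for Ccnd1 2 of 3 were called higher. Klf6, not called by its brightest probe set, was called lower in 2 of 5.

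**Figure D3:**
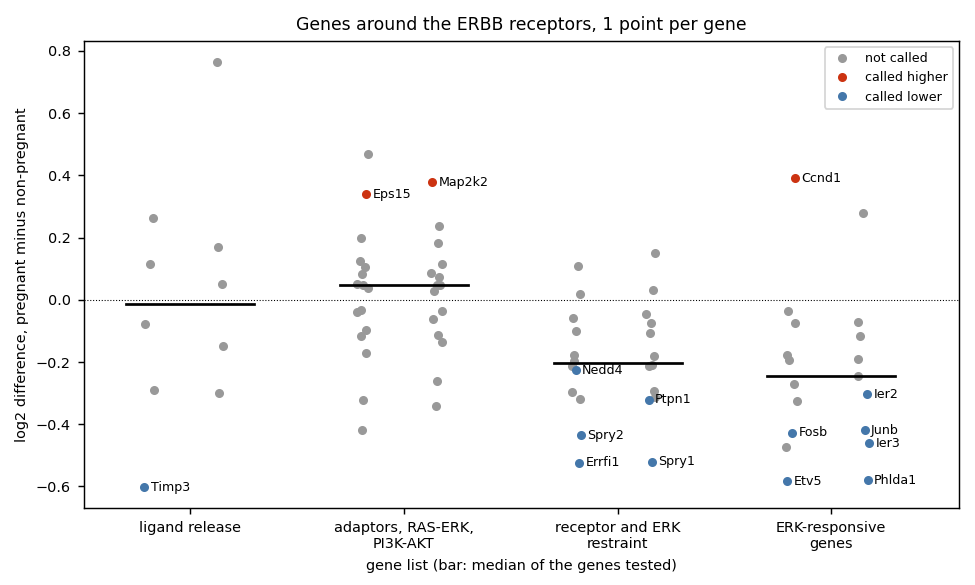
Log2 difference (pregnant minus non-pregnant) of each tested gene in 4 lists, 1 point per gene by its brightest probe set, with list medians as bars and called genes named. The medians of the restraint and ERK-responsive lists lie at -0.20 and -0.25, those of ligand release and of the adaptor and kinase list at -0.01 and 0.05.

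Markers of other cell types were read in the same arrays, against the 6.1% of all genes called higher and 5.79% called lower. Of 14 acinar (enzyme-secreting) markers tested, 13 fell and 0 rose, among them Cela1 and Sycn (log2 differences -1.08 and -1.60, limma adjusted p = 0.0017 and 0.0062). The summed signal of 15 acinar markers spanned 190458.5 to 351759.3 without and 112822.9 to 180626.3 with pregnancy. Among 14 stellate cell and fibroblast markers 3 fell and 0 rose, led by Dcn and Col3a1 (-1.20 and -0.75, adjusted p = 2.8e-04 and 9.5e-04), and the sums were 10575.3 to 11007.8 and 6444.3 to 8364.0. For endothelial cells 1 of 11 markers fell (9.09%, against 5.79% of all genes), Flt1 (-0.47, adjusted p = 0.010), with a list median of -0.135 and sums of 10573.0 to 11314.2 and 9388.9 to 10455.3. Only 1 of 2 tested probe sets of Col3a1 and 1 of 4 of Flt1 were called. Macrophage markers had 1 of 11 higher (9.09%, against 6.1%), C1qa (1.06, adjusted p = 1.1e-05), with a list median of 0.06. The macrophage sums were 8044.3 to 8535.9 and 11772.3 to 12621.1. Their mean went from 8356.3 to 12190.7 and that of C1qa from 3504.9 to 7299.5, so nearly all of the difference is that of C1qa. Its partner chains C1qb and C1qc had -0.17 and -0.25 and the receptor Csf1r -0.28 (adjusted p = 0.38, 0.46 and 0.068), named after their values were seen. Lyz1, not called by its brightest probe set, was called higher in 1 of 2 tested.

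Other marker lists overlapped between the groups in their sums. Of 7 duct markers 2 rose and 1 fell, with Epcam at 0.39 and Krt18 at 0.33 (limma adjusted p = 0.0011 and 0.0024). Epcam was called in 1 of 2 tested probe sets. The marker that fell was Krt7 (-0.27, adjusted p = 0.016), named after its value was seen. In non-pregnant islets Krt8 and Krt18 had mean signals of 14530.1 and 10594.8, against a mean duct sum of 36102.5. The sum therefore carries little of the dim duct markers Krt19 and Sox9, at 38.4 and 71.1. Of 5 Schwann cell markers 1 rose, Ngfr (1.61, adjusted p = 3.3e-04), and 1 fell, Fabp7 (-1.04, adjusted p = 0.013). Log2 differences were below 0 in 4 of these 5, against 56.5% of all genes tested, with a list median of -0.45 against -0.04. Of 7 markers of other endocrine cells 2 fell, Ghrl (-1.14, adjusted p = 9.8e-04) and Irx1 (-0.40, adjusted p = 0.033), and of 8 beta cell markers 2 fell, Slc2a2 (-0.25, adjusted p = 0.0063) and Slc30a8 (-0.29, adjusted p = 0.010). The duct markers Cftr, Muc1 and Onecut1 and the Schwann cell marker Gfap were below the filter and were not tested.

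The members can be read beside these sums. The acinar sum of non-pregnant replicate 2 was 190458.5, against 351759.3 and 346888.5 in replicates 1 and 3, a range of 1.85-fold. In replicate 2 the weaker Hbegf probe set (724.9) and Egfr 1424932_at (339.4) had their highest signals of the 6 arrays, as had Tgfa 1450421_at (232.4). Egf (765.3) and Egfr 1432647_at (128.9) were highest there within the non-pregnant group. Egfr 1451530_at (80.3) and Erbb3 1434606_at (200.1) were instead lowest there within that group. The brighter Hbegf probe set (1909.0), Egfr 1460420_a_at (453.5), Egfr 1435888_at (218.4), Tgfa 1421943_at (208.8) and Btc 1435541_at (61.8) lay in the middle. These are ranks in 1 array, non-pregnant replicate 2, and they differed between the tested probe sets. Without that array the differences were 0.36 for Egf (limma adjusted p = 0.0456), -0.53 and -0.44 for the brighter and the weaker Hbegf probe set (0.011 and 0.076) and -0.48 for Egfr 1424932_at (0.19). The part of acinar, stellate and other cell type markers in the values of Egf, Hbegf and Egfr was not tested. For RNA integrity, the 3′ to 5′ ratio of the Gapdh control spanned 0.669 to 0.711 without and 0.687 to 0.725 with pregnancy. That of beta actin spanned 1.556 to 1.626 and 1.63 to 1.665, which do not overlap, and its part in the results was not tested.

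**Figure D4:**
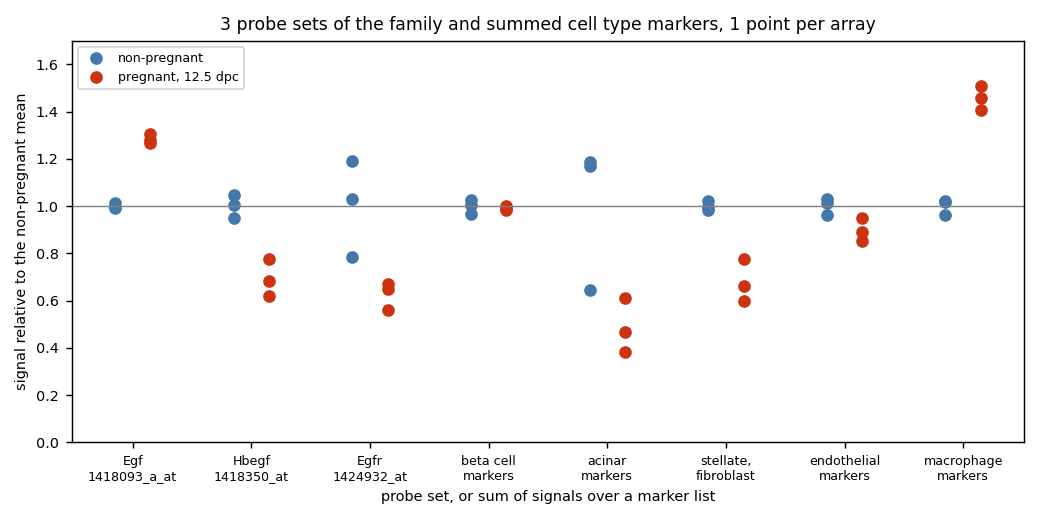
Signal of 1 probe set each of Egf, Hbegf and Egfr, and summed signals of 5 marker lists, relative to the mean of the 3 non-pregnant arrays (linear axis from 0), 1 point per array. The beta cell sums overlap between the groups, the acinar and stellate sums are lower in the pregnant arrays, and the macrophage sum is higher there, mostly through C1qa.

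**Figure D5:**
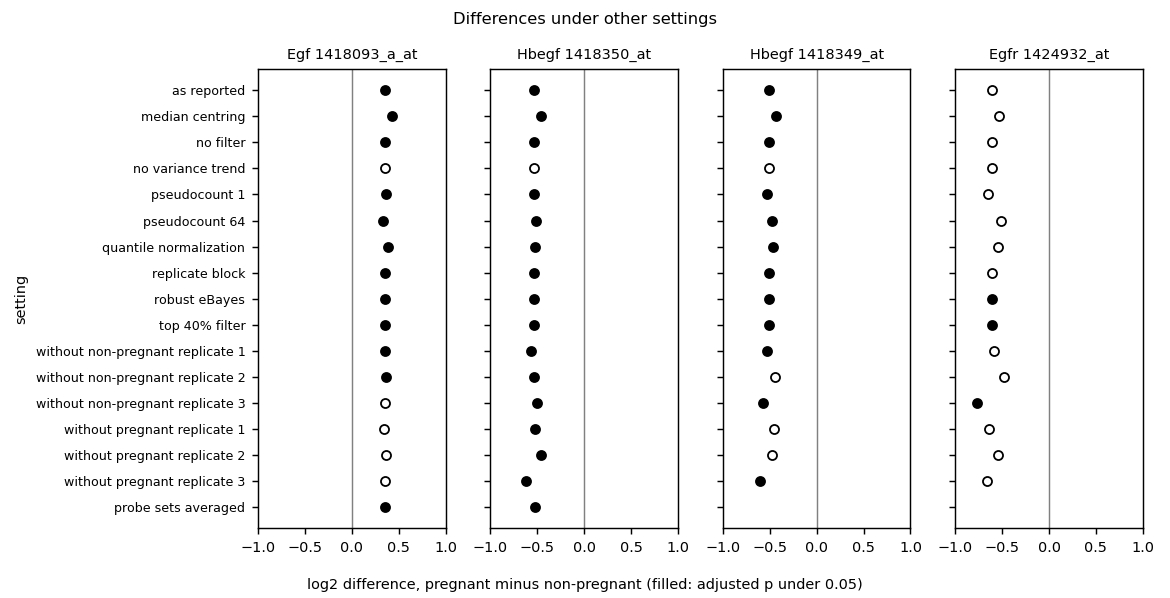
Log2 difference (pregnant minus non-pregnant) of Egf, both Hbegf probe sets and Egfr 1424932_at under each setting, filled where the adjusted p was under 0.05. All 4 kept their sign in every setting run, and the brighter Hbegf probe set lost its call only without the variance trend.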

How the data were processed

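Islet RNA (100 ng per array) was labelled with an Affymetrix 3' kit, per the labels' protocols. The authors deposited linear intensities, 1 per probe set and array, made with MAS5 according to the submitters' processing notes; its version is not given in the sources used. All arrays shared a 2% trimmed mean of 500.003, so they were not normalized further. The 64 AFFX controls were left out. Symbols came from the platform annotation (34958 probe sets with 1 symbol, 932 with several, 9211 unnamed here). Values were taken as log2(signal + 16), so log2 differences understate changes of dim genes. The brightest 60% of probe sets, by mean log2 value, entered the comparison in limma 3.58.1 under R 4.3.3 (lmFit, eBayes with variance trend), 2-sided, with Benjamini-Hochberg adjusted p under 0.05 and 4 residual degrees of freedom, and the fit was tested on simulated data. Errors of signals are SDs and errors of log2 differences are standard errors. From each list around the family up to 4 called genes with the smallest p were named, and from each marker list up to 2. Other genes named in the text fall outside this rule, among them Adam17, Adam10, Dusp6, Lrig1, Fos and Egr1, which were not called. The members, lists, settings and naming rule were chosen with earlier results of these data known. Alternatives were pseudocounts of 1 and 64, quantile normalization, median centring, other filters, eBayes without trend or robust, a replicate block, each array left out and averaged probe sets. Array pairs correlated at 0.965 to 0.973 and none was a duplicate. The number of arrays limits the precision. Figures were drawn with matplotlib 3.10.9.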

Additional observations from a re-analysis of the deposited data

How the results depend on the processing

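Among all probe sets, 2587 were called (1294 higher, 1293 lower). The count was 603 without the variance trend and 1482 to 2259 with any 1 array left out, lowest without pregnant replicate 1 and 1577 without pregnant replicate 2. With each array centred on its median 71.0% of the calls were higher, against 50.02%, and the median difference of all probe sets went from -0.045 to 0.03. Of the family, 1 probe set was called higher and 2 lower. Without the variance trend both counts were 0, as were those of ligand release, adaptors and kinases, restraint and ERK-responsive genes in either direction. With any 1 array left out, 0 to 1 family probe sets were higher and 1 to 3 lower. The only sign that turned was that of Tgfa 1450421_at (0.0432 without non-pregnant replicate 2, and -0.2312 at the other end of the range with 1 array left out). Restraint genes called lower numbered 1 with median centring, 3 with no filter, 2 with probe sets averaged and 1 to 4 with any 1 array left out, against 5. ERK-responsive genes called lower numbered 3 with median centring and 3 to 7 with any 1 array left out, against 6, and those called higher 1 to 2, against 1. Adaptors and kinases called higher numbered 1 with no filter and 1 to 2 with any 1 array left out, against 2. Of the ligand release genes 2 were lower with the top 40% filter, and 0 to 1 were higher with any 1 array left out. The replicate numbers did not pair the arrays (correlations of same-numbered deviations -0.03, -0.07 and 0.03). With the replicate block 2356 probe sets were called, the family calls kept their side, and Spry2 (adjusted p = 0.059) and Etv5 (0.058) lost theirs. Other genes of these lists gained a call, as 5 restraint and 7 ERK-responsive genes were called lower with the block, against 5 and 6. The causes of these changes were not tested. Members near the bacterial controls had no readable direction at these signals.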
